A study of Mus musculus with 9 samples.

Results

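A set of 8 genes that carry the thyroid hormone signal in a cell was followed through low oxygen and added hormone in cultured mouse cortical neurons. They are the hormone receptors Thra and Thrb, their partners Rxra, Rxrb and Rxrg, the activating deiodinase Dio2, the transporter Slc16a10 and the coactivator Ncoa1. The 8 genes were chosen by name for their part in this pathway, out of 24054 genes in the table, and all 8 were among the 12923 genes that passed a filter on low values. Polyadenylated RNA of wild-type C57BL/6 primary cortical neuronal cells, grown for 6 days in Neurobasal medium with B27 supplement, was sequenced in 9 libraries. Normoxia, the control group, had 3 libraries, hypoxia had 3 (0.2% oxygen for 7 hours) and hypoxia with T3 had 3 (the same low oxygen with 10 nM triiodothyronine, or T3, in the medium). The standard recipe of B27 contains T3 and a retinoid, so no group is known to have been free of hormone, and the labels do not give the version used. No group received T3 in normal oxygen, so an effect of T3 alone cannot be told apart from one that needs low oxygen.

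Thyroid hormone enters neurons and glia through membrane transporters. In the brain the deiodinase encoded by Dio2, found mainly in astrocytes, removes an iodine from thyroxine to make T3, the form that binds the nuclear receptors. The receptors sit on DNA as heterodimers with a retinoid X receptor (RXR). Without hormone they hold a corepressor complex, and with hormone they exchange it for coactivators such as the product of Ncoa1. Thra is known as the main receptor gene of the brain, and Thrb is known for roles in hearing, colour vision and the feedback of hormone on the pituitary.

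Values are TMM-normalized CPM, a read count scaled by the authors to the size of its library, and libraries are named by the number in their column header (normoxia 1 to 3, hypoxia 7 to 9, hypoxia with T3 11 to 13). A log2 change is a difference of group means of log2(CPM + 1), with its standard error (SE), and understates the change of genes at low values. Recovered depth ran from 17182339 to 33937842 reads, so that 1 read was worth 0.0302 to 0.0565 CPM. Nothing in the labels tells whether the 3 libraries of a group are separate cultures. The p-values therefore weigh changes against a spread between libraries that could be technical only. As checks of the labels, Slc2a1, a glucose transporter induced by low oxygen, lay at 9.24 to 10.1 CPM in normoxia and 47.8 to 60.0 CPM in hypoxia. Hr, a corepressor gene induced by T3, lay at 4.35 to 5.19 CPM in hypoxia and 30.1 to 34.2 CPM with T3, although its values were not all whole reads. Klf9, with the same limit, lay at 19.8 to 24.8 CPM in hypoxia and 48.0 to 57.7 CPM with T3. Dbp, a T3 check with whole reads, was weaker. It rose by 0.62 on the log2 scale in hypoxia (limma adjusted p = 0.011) and by 0.57 with T3 against hypoxia, which did not pass (limma adjusted p = 0.052). All 9 neuron markers were above 1 CPM in every library and all 6 microglia markers were at or below it. Genes of astrocytes, the oligodendrocyte lineage and cycling cells were also read, so the cultures were not of neurons alone. In bulk RNA, fewer cells of a type and less RNA per cell cannot be told apart.

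In low oxygen, Thrb and Ncoa1 were called lower and none of the 8 was called higher. That is 2 of 8 genes called by limma at an adjusted p under 0.05, where 33.6% of all tested genes were called and 19.3% were called lower. This depended on the scaling. With all libraries rescaled to equal column sums, 4 of the 8 were called, Thrb lower and Dio2, Rxrb and Thra higher, and Ncoa1 was not. With T3 added to hypoxia, Thrb fell again and was the only one of the 8 called, where 6.48% of all tested genes were called and 3.75% were called lower. Against normoxia, hypoxia with T3 had Thrb and Ncoa1 lower and Rxrb higher, 3 of 8, where 55.1% of all tested genes were called, 29.5% lower and 25.5% higher. The median log2 change of the 8 genes was -0.02, -0.19 and 0.02 in these comparisons, beside -0.001, -0.006 and 0.002 over all tested genes. The comparisons share libraries, and the changes of the third are the sums of those of the other two.

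**Figure D1:**
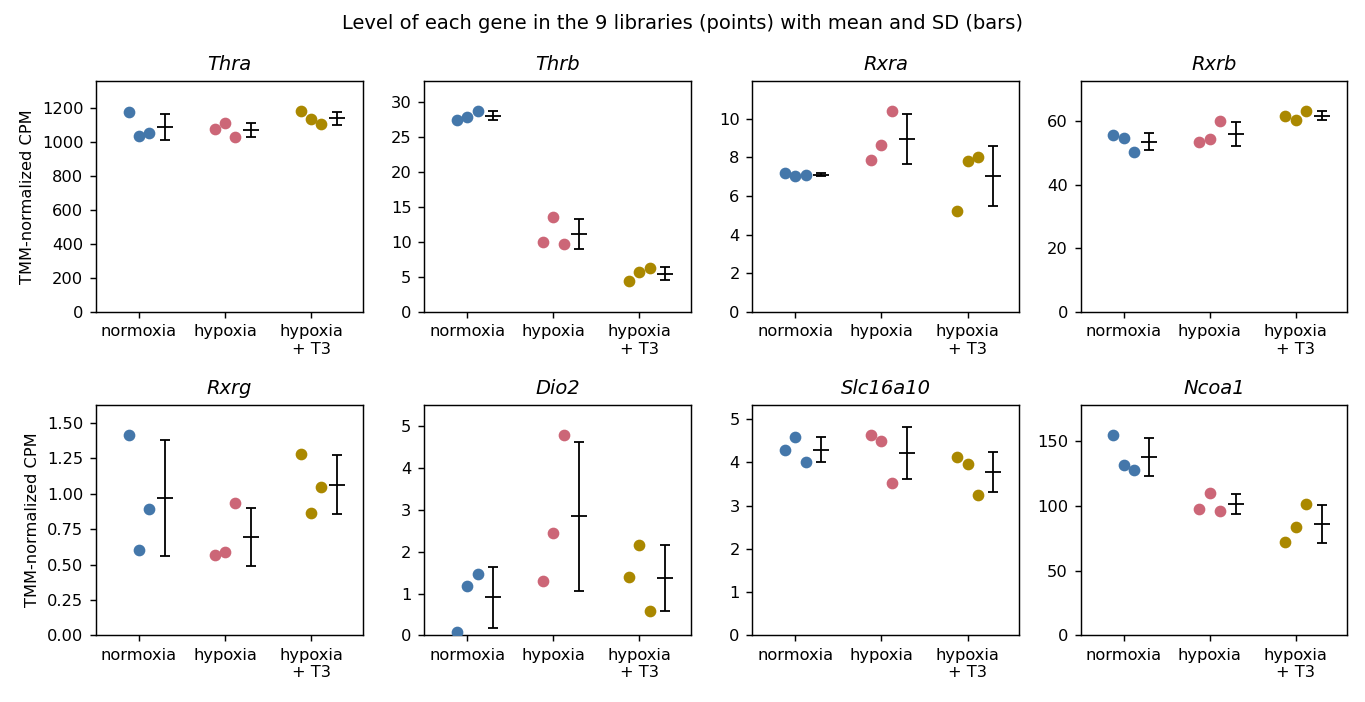
Level of each of the 8 genes in TMM-normalized CPM (vertical axis, from 0, with its own scale for each gene) in the 9 libraries, as points by group, with bars for the mean and SD of 3 libraries. Thrb steps down from about 28.0 to 11.1 to 5.43 CPM with no overlap between groups, while Thra stays between 1026.7 and 1179.5 CPM.

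Thrb, the gene of thyroid hormone receptor beta, lies on the plus strand of mouse chromosome 14 at 17659225 to 18040097 (GRCm38, the build the submitters name as mm10) and spans 380.9 kb, the longest span of the 8 genes. RefSeq promoter windows were matched for 2 of its start sites, 320.7 kb apart. The gene table does not separate transcripts made from one and the other. Both windows lie inside the span given above, the upstream one from 17660710, so the annotated gene begins further upstream than either start. Windows of 250 bases before these starts are shown for Thrb and Ncoa1, the genes called lower in hypoxia. They show the letters near annotated starts (RefSeq, GRCm38.p6, on the strand of the gene). The Ncoa1 window, from 4477183, also reaches into the Ncoa1 span, which ends at 4477206. Each is printed up to the first base of an exon in GENCODE M21, which leaves out the last 68 bases of the upstream and 115 bases of the downstream Thrb window. Capitals mark 2 motifs, searched on both strands. One is the core that hypoxia-inducible factors bind, ACGTG or GCGTG, which reads CACGT or CACGC on the other strand. The other is AGGTCA, the half-site of thyroid hormone receptors and other nuclear receptors, which reads TGACCT on the other strand.
Thrb, upstream start, chr14:17660710-17660891: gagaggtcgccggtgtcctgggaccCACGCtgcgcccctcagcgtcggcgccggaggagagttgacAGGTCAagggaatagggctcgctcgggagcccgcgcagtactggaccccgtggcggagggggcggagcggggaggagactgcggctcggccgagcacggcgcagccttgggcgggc
Thrb, downstream start, chr14:17981394-17981528: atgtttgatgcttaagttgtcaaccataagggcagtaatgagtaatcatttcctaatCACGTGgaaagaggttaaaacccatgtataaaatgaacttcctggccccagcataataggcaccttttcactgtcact
Ncoa1, chr12:4477183-4477432, minus strand: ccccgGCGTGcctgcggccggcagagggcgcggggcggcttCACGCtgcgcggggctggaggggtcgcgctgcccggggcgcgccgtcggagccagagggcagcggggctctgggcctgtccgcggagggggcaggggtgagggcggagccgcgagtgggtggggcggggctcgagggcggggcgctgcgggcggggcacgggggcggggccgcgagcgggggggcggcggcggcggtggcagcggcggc

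The upstream Thrb window is rich in G and C (71.6%) and holds GCGTG 225 and 59 bases before the start, the second of them outside the printed part, and AGGTCA 184 bases before it. The downstream window has 44.0% G and C, and its capitals are CACGTG, in which ACGTG on both strands overlaps. The Ncoa1 window has 85.6% G and C with 2 GCGTG matches. Rxrb, called with T3 against normoxia, has 2 windows that overlap exons and are not printed: the first holds ACGTG and GCGTG, 228 and 218 bases before its start, and the second GCGTG 54 bases before its start. Of all 32851 promoter windows of this length, 38.6% held the first motif and 14.0% held AGGTCA, and the median G and C content was 52.4%. Both motifs also occurred at genes called in no comparison. Slc16a10 held GCGTG 2 times in its window, 1 of the 2 Rxra windows held AGGTCA 2 times and 1 of the 2 Rxrg windows held it 1 time, while the Dio2 window held neither. RefSeq windows were matched for 7 of the 8 genes, 11 windows in all, with none for Thra. A match is only a run of letters in the window, and binding was not measured.

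Thrb was measured at 27.4, 27.9 and 28.7 CPM in normoxia 1, 2 and 3. In hypoxia 7, 8 and 9 it was measured at 9.95, 13.5 and 9.74 CPM, and with T3 at 4.41, 5.66 and 6.21 CPM in libraries 11, 12 and 13. The 3 groups did not overlap, and every T3 library lay below every hypoxia library. Between hypoxia and normoxia, 47.8% of tested genes had groups that did not overlap, between hypoxia with T3 and hypoxia 31.7% did, and between hypoxia with T3 and normoxia 62.7% did. These values stand on 659 to 924 reads of Thrb in normoxia, 176 to 392 in hypoxia and 124 to 190 with T3.

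Thrb averaged 28.0 ± 0.635 CPM (SD, n = 3) in normoxia. The mean was 11.1 ± 2.12 CPM in hypoxia, and 5.43 ± 0.927 CPM once T3 was added. Its log2 change was -1.28 in hypoxia against normoxia (SE 0.14, limma adjusted p = 0.00012). With T3 against hypoxia it was -0.91 (SE 0.14, limma adjusted p = 0.011). That call was lost without T3 12, where the Thrb change was -0.94 (limma adjusted p = 0.052) and all genes called went from 838 to 31. Against normoxia, hypoxia with T3 gave Thrb a log2 change of -2.19 (limma adjusted p = 9.3e-07). Thrb was thus lower in 3 of 3 libraries at each step, and the fall with T3 came on top of the fall with low oxygen.

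Thra, the gene of thyroid hormone receptor alpha, lies on the plus strand of chromosome 11 at 98740776 to 98769006 and spans 28.2 kb. One of its main products is a variant that does not bind hormone, and the table does not separate that variant from the receptor. Thra was measured at 1172.2, 1035.9 and 1049.3 CPM in normoxia, at 1073.0, 1110.2 and 1026.7 CPM in hypoxia, and at 1179.5, 1133.1 and 1101.5 CPM in hypoxia with T3. The groups overlapped throughout. The log2 change was -0.02 in hypoxia (95% interval -0.15 to 0.11, limma adjusted p = 0.82) and 0.09 with T3 against hypoxia (-0.04 to 0.22, limma adjusted p = 0.35). Rescaling all libraries to equal column sums turned the first change to 0.12, with an adjusted p of 0.038, so a small rise of Thra depends on the scaling.

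A gene on the other strand runs into the 3′ end of Thra. It is Nr1d1, a circadian repressor, whose exons share 263 bases with Thra, 8.3% of the Thra exon bases, all of them with Thra-201 and none with the other transcript, Thra-202. Nr1d1 was measured at 113 to 119 CPM in normoxia, 121 to 128 CPM in hypoxia and 135 to 163 CPM in hypoxia with T3. Its log2 change was 0.12 in hypoxia (limma adjusted p = 0.17) and 0.24 with T3 against hypoxia (limma adjusted p = 0.053). Against normoxia it was 0.36 with T3 (limma adjusted p = 0.00085). The library kit keeps the strand, per the labels, but whether the counting used it is not given in the sources used here. Its part in the level of Thra was not tested.

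Set against Thra within the same library, Thrb kept the same pattern, and this ratio does not depend on how libraries are scaled to each other. Thrb reads were 2.34%, 2.69% and 2.73% of Thra reads in normoxia. They were 0.927%, 1.22% and 0.949% in hypoxia, and 0.373%, 0.499% and 0.564% in hypoxia with T3. On the log2 scale the ratio averaged -5.27 ± 0.12 in normoxia, -6.61 ± 0.22 in hypoxia and -7.73 ± 0.31 with T3 (SD, n = 3). The differences were -1.34 in hypoxia and -1.12 with T3 against hypoxia. An exact permutation test over libraries, two-sided, gave p = 0.1 for each, the smallest that 3 against 3 libraries allow. The share of Thrb relative to Thra was smaller at both steps in 3 of 3 libraries, in a design too small to pass a threshold of 0.05.

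**Figure D2:**
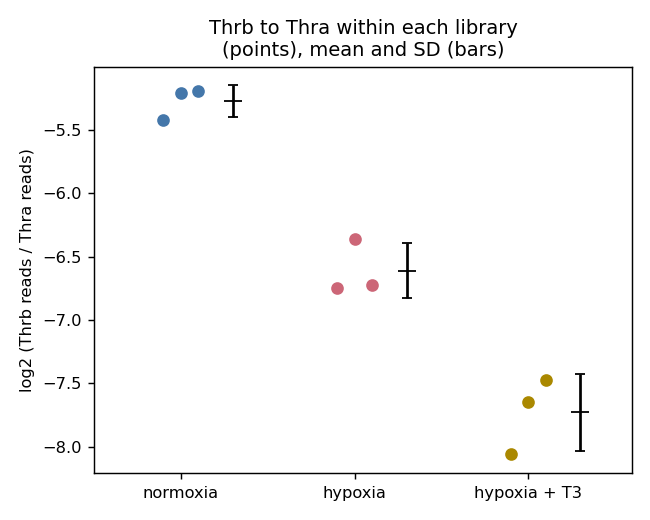
Log2 of Thrb reads over Thra reads (vertical axis) in each of the 9 libraries, as points by group, with bars for the mean and SD of 3 libraries. The groups sit at -5.42 to -5.19, -6.75 to -6.36 and -8.06 to -7.47 and do not overlap.

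The RXR genes encode the partners that the hormone receptors need to bind most of their sites, and which they share with retinoic acid receptors and other nuclear receptors. Rxrb (chromosome 17, 34031812 to 34038403, plus strand, 6.6 kb) was measured at 55.5, 54.6 and 50.4 CPM in normoxia, 53.3, 54.3 and 60.1 CPM in hypoxia and 61.5, 60.4 and 63.1 CPM in hypoxia with T3. The T3 libraries were above all others, while normoxia and hypoxia overlapped. Its log2 change was 0.06 in hypoxia (SE 0.06, limma adjusted p = 0.48) and 0.14 with T3 against hypoxia (SE 0.06, limma adjusted p = 0.18). Against normoxia Rxrb rose by 0.20 with T3 (SE 0.06, limma adjusted p = 0.019). That call was lost without normoxia 3 (0.16, adjusted p = 0.072) or without T3 13 (0.19, adjusted p = 0.053).

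Rxra (chromosome 2, 27676445 to 27763319, plus strand, 86.9 kb) was measured at 7.20, 7.04 and 7.07 CPM in normoxia. It was at 7.86, 8.66 and 10.4 CPM in hypoxia and at 5.22, 7.82 and 8.01 CPM in hypoxia with T3. All hypoxia libraries were above all normoxia libraries, but the log2 change of 0.29 did not pass the test (95% interval -0.04 to 0.62, limma adjusted p = 0.15). T3 against hypoxia gave a change of -0.33 (-0.65 to 0.00, limma adjusted p = 0.18), with T3 11 the lowest of the 9 libraries.

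Rxrg (chromosome 1, 167598362 to 167639623, plus strand, 41.3 kb), whose product is known from the striatum, retina and muscle, was close to the limit of the filter. It had 34, 20 and 25 reads in normoxia, 10, 17 and 23 reads in hypoxia, and 36, 26 and 32 reads in hypoxia with T3. Its values ran from 0.565 to 1.42 CPM over the 9 libraries, and normoxia overlapped both other groups. The log2 change was -0.20 in hypoxia (95% interval -0.59 to 0.18, limma adjusted p = 0.39) and 0.29 with T3 against hypoxia (-0.10 to 0.67, limma adjusted p = 0.32). With edgeR on the recovered reads these changes were -0.43 and 0.60, and neither was called (adjusted p = 0.39 and 0.31).

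**Figure D3:**
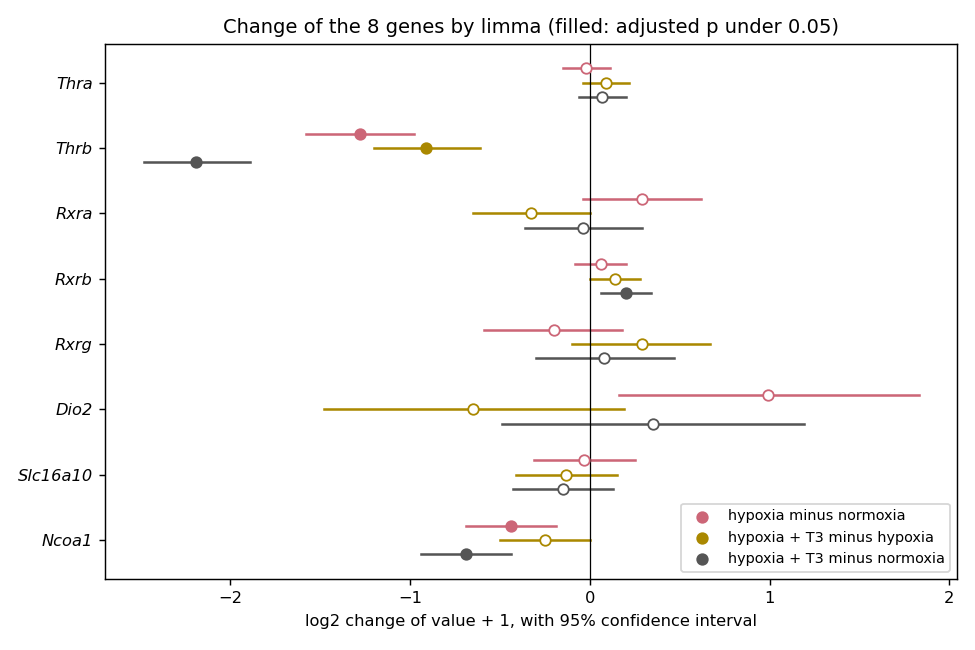
Log2 change of CPM + 1 (horizontal axis) for each of the 8 genes in the 3 comparisons, with lines for the 95% confidence interval; filled points have a limma adjusted p under 0.05. Thrb is filled in all 3 comparisons at -1.28, -0.91 and -2.19, Ncoa1 in the 2 against normoxia, and Rxrb with T3 against normoxia only.

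Dio2 (chromosome 12, 90724552 to 90739038, minus strand, 14.5 kb) varied more between libraries of a group than any other of the 8 genes relative to its level. It had 2, 39 and 41 reads in normoxia 1, 2 and 3, or 0.0833, 1.18 and 1.46 CPM. In hypoxia it had 23, 71 and 118 reads (1.30, 2.45 and 4.79 CPM), and with T3 it had 39, 65 and 18 reads (1.39, 2.16 and 0.589 CPM). Hypoxia 9 was the highest library and normoxia 1 the lowest, and hypoxia overlapped both other groups. The log2 change in hypoxia was 0.99 (95% interval 0.16 to 1.83, limma adjusted p = 0.065), and it passed the test in 3 of 19 alternative settings. Without hypoxia 7 it was 1.31 (adjusted p = 0.029), and without hypoxia 9 it was 0.65 (adjusted p = 0.24). T3 added to hypoxia gave -0.65 (-1.48 to 0.19, limma adjusted p = 0.30).

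Astrocyte markers also varied between libraries. The summed level of 10 astrocyte markers was 186, 193 and 299 CPM in normoxia, 204, 309 and 395 CPM in hypoxia and 268, 372 and 282 CPM in hypoxia with T3. Of the 10 markers, 4 were above 1 CPM in normoxia 1 and 7 to 9 in each of the other libraries, and Gfap, the astrocyte filament gene, was at 0 in normoxia 1. Within each group the library with the most Dio2 was also the one with the highest sum. Normoxia 1, with 2 reads of Dio2, had the lowest sum, and hypoxia 9, with 118, the highest. All of this also held for the summed markers of the oligodendrocyte lineage and of progenitors and cycling cells, so it was not particular to astrocytes. Those sums were 40.5 and 17.2 CPM in normoxia 1 and 205 and 146 CPM in hypoxia 9. With T3, Dio2 and the progenitor sum were lowest in library 13, and the other sums in library 11. The part of astrocytes or of these other cells in the values of Dio2 was not tested.

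**Figure D4:**
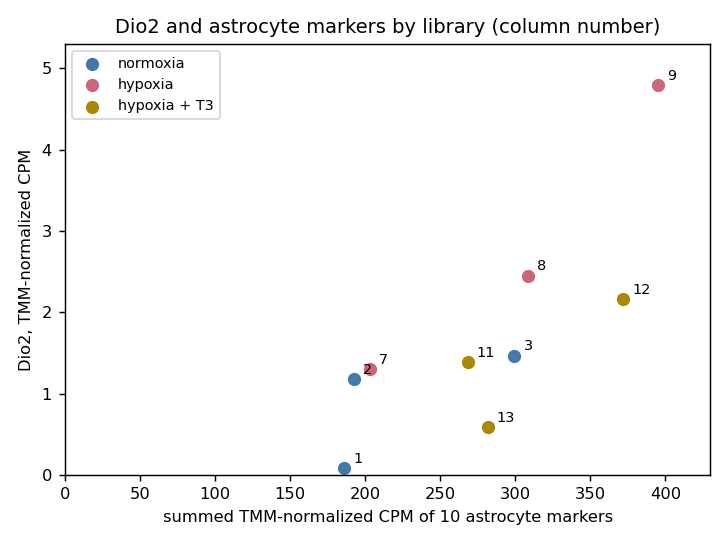
Dio2 in TMM-normalized CPM (vertical axis, from 0) against the summed CPM of 10 astrocyte markers (horizontal axis), 1 point per library, coloured by group and labelled with its column number. Normoxia 1 is at the lower left with 0.0833 CPM of Dio2 and a sum of 186, and hypoxia 9 is at the upper right with 4.79 and 395. Slc1a2 is the largest part of each sum.

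The enzyme that inactivates T3 is encoded by Dio3, known as a gene induced by the hormone through Thra. Dio3 did not pass the filter. It had 0, 1 and 1 reads in normoxia, 1, 3 and 4 reads in hypoxia and 16, 10 and 13 reads in hypoxia with T3, so that the T3 libraries did not overlap the others. When limma was fitted with no filter, the log2 change of Dio3 was 0.38 with T3 against hypoxia (adjusted p = 0.035) and 0.11 in hypoxia (adjusted p = 0.23). With T3 against hypoxia that fit called 172 of all 19549 genes and 3 of 47 genes of the lists. Of the other genes of this list, Dio1 had 1 read over the 9 libraries together. Crym, which binds T3 in the cytosol, and Secisbp2, which is needed to make selenoproteins such as the deiodinases, were tested and not called in any comparison. Ttr, the thyroxine carrier of the choroid plexus, was below the filter with 0 to 147 reads per library, and Selenop was not analysed here.

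Slc16a10, the monocarboxylate transporter MCT10, carries aromatic amino acids and thyroid hormone. It lies on chromosome 10 at 40033532 to 40142270, minus strand, and spans 108.7 kb. It was measured at 4.29, 4.59 and 4.002 CPM in normoxia, 4.63, 4.48 and 3.53 CPM in hypoxia and 4.12, 3.96 and 3.24 CPM in hypoxia with T3. All groups overlapped. The log2 change was -0.03 in hypoxia (95% interval -0.31 to 0.25, limma adjusted p = 0.89) and -0.13 with T3 against hypoxia (-0.41 to 0.15, limma adjusted p = 0.56).

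The other hormone transporters did not all follow it. Of 7 in the list, 4 passed the filter, and in hypoxia 1 was called higher and 1 lower, beside 14.3% and 19.3% of all tested genes, with a median log2 change of 0.07. Slc7a8, a light chain of an amino acid exchanger, fell by 0.26 (limma adjusted p = 0.0074), a call that was lost with equal column sums (adjusted p = 0.097). With T3 against normoxia Slc7a8 fell by 0.40 (limma adjusted p = 0.00026), a call that held in 20 of 20 alternative settings. Slc3a2, the heavy chain that takes such light chains to the membrane, rose from 185 CPM to 230 CPM (0.31, limma adjusted p = 0.0023). With T3 it reached 282 CPM (0.29 against hypoxia, limma adjusted p = 0.023), a call lost without hypoxia 7, hypoxia 8, T3 11 or T3 12. Slc7a5, another light chain, was called with T3 against normoxia (0.39, limma adjusted p = 0.00042). In hypoxia it had 0.17 (limma adjusted p = 0.062), which passed in 3 of 20 alternative settings, among them equal column sums (0.31, adjusted p = 0.002). Slco1c1, a thyroxine transporter, was below the filter with 2 to 69 reads per library, and it was highest in hypoxia 9, the library with the most Dio2.

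Ncoa1, the steroid receptor coactivator SRC-1, is recruited by hormone-bound receptors and lies on chromosome 12 at 4247362 to 4477206, minus strand, over 229.8 kb. It was measured at 154.95, 131.71 and 127.78 CPM in normoxia and at 97.5, 110.08 and 96.2 CPM in hypoxia. With T3 it was measured at 72.0, 84.0 and 101.24 CPM. Every hypoxia library was below every normoxia library, and T3 13 overlapped hypoxia. Ncoa1 fell by 0.44 on the log2 scale in hypoxia (SE 0.11, limma adjusted p = 0.013). The call was lost with equal column sums (-0.30, adjusted p = 0.06) and without normoxia 1 (-0.36, adjusted p = 0.051). T3 added to hypoxia gave a change of -0.25 (95% interval -0.50 to 0.00, limma adjusted p = 0.18), and without T3 13 it was -0.37 (adjusted p = 0.031). Against normoxia Ncoa1 fell with T3 by 0.69 (SE 0.11, limma adjusted p = 0.00043), a call that held in 20 of 20 alternative settings.

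Other coactivators of the receptors moved downward where they moved at all in hypoxia. Of 12, 11 had values that were all whole reads, and of these 4 were lower and none higher, beside 19.3% lower and 14.3% higher among all tested genes, with a median log2 change of -0.11. Besides Ncoa1 these were Ncoa2 (SRC-2), the arginine methyltransferase gene Carm1 and Smarca4, the motor subunit of a chromatin remodelling complex. Ncoa2 fell from a mean of 155 CPM to 102 CPM in hypoxia (log2 change -0.60, limma adjusted p = 0.0023) and to 73.4 CPM with T3 (-0.47 against hypoxia, limma adjusted p = 0.036). The call of Ncoa2 with T3 was lost without hypoxia 7, hypoxia 8, T3 11, T3 12 or normoxia 2. Carm1 fell by 0.55 (limma adjusted p = 0.002) and Smarca4 by 0.31 (limma adjusted p = 0.0013) in hypoxia, and neither was called with T3 against hypoxia. With T3 against normoxia 7 of the 11 were lower, beside 29.5% of all tested genes, and with equal column sums 5 were lower and 1 higher, where Ep300 (adjusted p = 0.29) and Med1 (adjusted p = 0.13) lost their calls. Among the lower genes were Ncoa2 with -1.07 and the acetyltransferase gene Kat2b with -0.49, which was not called without T3 12.

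Some subunits of the corepressor complex were also lower. Of 7 corepressor genes, 6 had values that were all whole reads, and of these 3 were lower and none higher in hypoxia, beside the same 19.3% and 14.3%, with a median log2 change of -0.08. With equal column sums 1 of the 6 was lower (Tbl1x) and 1 higher, Sin3a, a scaffold of another deacetylase complex (0.36, adjusted p = 0.023), which was also called without normoxia 1. Tbl1x and Tbl1xr1 encode related subunits that help exchange corepressors for coactivators. Tbl1x fell from 44.9 CPM to 27.7 CPM (-0.68, limma adjusted p = 0.0002) and to 20.6 CPM with T3 (-0.41 against hypoxia, limma adjusted p = 0.022). Tbl1xr1 fell from 60.0 CPM to 43.3 CPM (-0.46, limma adjusted p = 0.011) and to 28.1 CPM with T3 (-0.61 against hypoxia, limma adjusted p = 0.022). Both calls with T3 were lost without hypoxia 7, hypoxia 8, T3 11 or T3 12, and that of Tbl1xr1 in hypoxia was lost with equal column sums (adjusted p = 0.058). Hdac3, the deacetylase of the complex, fell by 0.17 in hypoxia (limma adjusted p = 0.033), but the change was -0.03 with equal column sums, and the call was lost without normoxia 1, 2 or 3, hypoxia 8 or 9, or T3 12.

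Among 11 other nuclear receptors that pair with RXR, 7 passed the filter. Of these, 2 were called higher and 1 lower in hypoxia, beside 14.3% and 19.3% of all tested genes. With equal column sums 4 were called higher and 1 lower. In hypoxia Nr4a1, an activity-induced orphan receptor, rose (log2 change 1.22, limma adjusted p = 0.0053), and Rarg, a retinoic acid receptor, rose by 0.36 (limma adjusted p = 0.023). The Rarg call was lost without hypoxia 7, normoxia 2 or normoxia 3. Rarb, another retinoic acid receptor, fell from 2.69 CPM to 1.05 CPM (-0.85, limma adjusted p = 0.00098). None of the 7 was called with T3 against hypoxia, where 6.48% of all tested genes were called. There Rarb had a log2 change of -0.05 (limma adjusted p = 0.85) beside -0.91 for Thrb. Rarb rested on only 20 to 37 reads in each library of low oxygen.

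Over all lists together, the 36 tested genes with whole reads gave 3 higher and 10 lower in hypoxia, and 1 higher and 4 lower with T3 against hypoxia. Of all tested genes 14.3% were higher and 19.3% lower in hypoxia, and 2.73% and 3.75% with T3. The medians of these 36 log2 changes were -0.04 and -0.08. With Crebbp and Ncor1, whose values were not all whole reads, 38 genes of the lists were tested. These 38 gave 10 higher and 7 lower in hypoxia with equal column sums, against 3 and 12 as deposited. The direction of small changes thus depended on the scaling. Most calls with T3 were lost when any of several single libraries was left out, and so were most calls over all genes. All genes called with T3 against hypoxia fell from 838 to 88 without hypoxia 7 and 43 without hypoxia 8. They fell to 46 without T3 11 and 31 without T3 12. Of the 38 list genes, 7 were called with T3 against hypoxia, Crebbp and Ncor1 among them. Of these 7, 1 (Thrb) was called without hypoxia 7, without hypoxia 8 or without T3 11. None was called without T3 12, and 10 were called without T3 13.

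The genes of the pathway that were lower were often long. Genomic span from RefSeq was set beside the changes as a description. Of 494 tested genes spanning over 300 kb, 78.5% were called lower in hypoxia, against 48.5% of 1492 genes of 100 to 300 kb, 19.0% of 5290 genes of 20 to 100 kb and 6.63% of 5581 genes under 20 kb. The medians of the log2 changes in these classes, from the longest down, were -0.61, -0.27, -0.04 and 0.10. With T3 against hypoxia 25.1%, 12.1%, 2.46% and 0.878% were called lower, with medians of -0.35, -0.20, -0.02 and 0.07. With equal column sums the shares in hypoxia were 65.4%, 27.1%, 6.62% and 2.69%, in the same order.

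Thrb is among the longest genes tested, since 2.67% of tested genes span as much or more. Within the class over 300 kb its log2 change in hypoxia was still low, with 18 of 494 genes (3.64%) at or below it. In T3 against hypoxia 7 of 494 genes (1.42%) were at or below it. Ncoa1 was nearer the middle of its class of 100 to 300 kb, with 26.1% of genes at or below its change in hypoxia and 39.9% with T3 against hypoxia. Slc16a10 belongs to the same class and was among its higher genes in hypoxia, with 80.3% of genes at or below its change. Of the 6 pathway genes of 100 to 300 kb with whole reads, 4 were lower in hypoxia (Ncoa1, Ncoa2, Tbl1x and Tbl1xr1). Both over 300 kb, Thrb and Rarb, were lower, and 3 of 19 between 20 and 100 kb were. The part of gene span in the fall of Thrb and Ncoa1 was not tested.

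**Figure D5:**
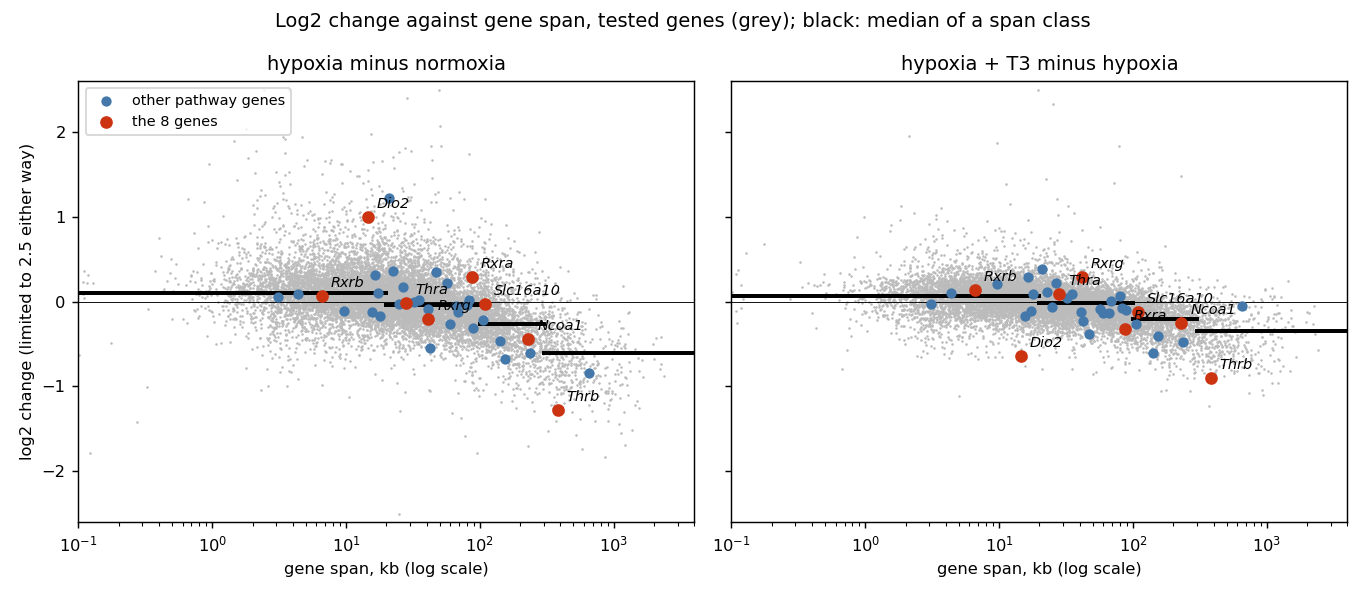
Log2 change of CPM + 1 (vertical axis, limited to 2.5 either way) against gene span in kb (horizontal axis, log scale) for tested genes in grey, other pathway genes in blue and the 8 genes in red, with a panel per comparison and black lines for the median of each span class. The black lines step down from 0.10 to -0.61 in hypoxia, and Thrb lies below the line of its class.

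The markers of neurons moved as well. Their summed level was 5090.6 to 5423.8 CPM in normoxia, 3601.8 to 4027.7 CPM in hypoxia and 3208.1 to 3398.4 CPM in hypoxia with T3. Most of the difference was in Tubb3, a tubulin gene, at 2261.6 to 2578.0 CPM in normoxia and 922.3 to 1357.1 CPM in hypoxia (log2 change -1.12, limma adjusted p = 0.00044). Syt1 and Rbfox3 also fell in hypoxia, with log2 changes of -0.54 (limma adjusted p = 0.00091) and -0.28 (limma adjusted p = 0.014). The Rbfox3 call was lost with equal column sums (-0.14, adjusted p = 0.15) and without normoxia 1 or hypoxia 7. The other 6 neuron markers were not called, among them Map2 with 0.11 and Snap25 with -0.07. With T3 against hypoxia Tubb3 fell from a mean of 1104.2 CPM to 700.6 CPM (-0.66, limma adjusted p = 0.034) and was the only neuron marker called, a call lost without normoxia 2, hypoxia 7, hypoxia 8, T3 11 or T3 12. Rbfox3 (0.26, limma adjusted p = 0.054), Snap25 (0.10) and Slc17a7 (0.08) were higher in every T3 library than in every hypoxia library without passing the test. The part of neuron number or state in the levels of the 8 genes was not tested.

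Levels were compared between genes per kb of exon, with the union of exons from GENCODE M21 as the length. In normoxia Thra was highest at 344 ± 23.8 CPM per kb (SD, n = 3). Ncoa1 at 18.8 ± 2.004 and Rxrb at 18.5 ± 0.944 CPM per kb overlapped. Then came Thrb at 4.16 ± 0.0943 and Rxra at 1.39 ± 0.0168 CPM per kb. Slc16a10 at 0.653 ± 0.0449 and Rxrg at 0.423 ± 0.179 CPM per kb overlapped, and Dio2 was lowest at 0.156 ± 0.125.

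The place of Thrb in this order of levels differed between the groups. In hypoxia Thrb, at 1.64 ± 0.315 CPM per kb, overlapped Rxra at 1.76 ± 0.254. In hypoxia with T3 Thrb was at 0.654 to 0.923 CPM per kb, below all 3 libraries of Rxra at 1.02 to 1.57. Rxrb lay above Ncoa1 with no overlap in both groups in low oxygen, at 19.3 ± 1.26 against 13.8 ± 1.05 CPM per kb in hypoxia and at 21.3 ± 0.473 against 11.7 ± 2.01 CPM per kb with T3. Thra stayed the highest of the 8 in all 9 libraries.

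The genes whose levels followed those of Thrb most closely over the 9 libraries were Prkg1, a cGMP-dependent kinase gene (Pearson r = 0.996), Zfp804a (r = 0.9959) and Cog5, a Golgi complex gene (r = 0.9952). Prkg1 averaged 13.7 CPM in normoxia, 5.002 CPM in hypoxia and 2.09 CPM with T3. It spans 1200.8 kb, while Zfp804a spans 209.75 kb and Cog5 282.81 kb. For Ncoa1 the closest genes were Dym (r = 0.9956), Nedd4l, a ubiquitin ligase gene (r = 0.9952), and Tyw1 (r = 0.9915). For Rxrb they were Smad1, a mediator of BMP signals (r = 0.9717), Mmp17 (r = 0.96) and Wwc1 (r = 0.9565). These are the highest of 12158 genes compared on log2(CPM + 1), and since the 9 points are 3 groups of 3 libraries they show a shared order of group means and are given as a description only.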

How the data were processed

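Polyadenylated RNA of mouse cortical neurons was sequenced in 9 libraries. The deposited table holds a signal that the authors made, TMM-normalized CPM per gene symbol. Bowtie2 2.1.0, RSEM 1.2.15, edgeR and the mm10 genome are named in the submitters' processing notes. Their roles, and the filters and annotation, are not given in the sources used here. Values fell on steps of 1 read, within 0.01 reads, for 99.888% to 99.996% of the rows of a column, and these steps gave back the reads. Crebbp, Ncor1, Hr and Klf9 were among the 35 rows with other values. An unnamed column with 4 numbers was not used.

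A gene was tested if it was above 1 CPM in 3 or more libraries. The fit used all 9 libraries, in R 4.3.3 with limma 3.58.1 (trend, 6 residual degrees of freedom) on log2(CPM + 1), two-sided, with Benjamini-Hochberg adjustment over 12923 genes at a threshold of 0.05. Groups follow the labels and column headers. The ratio of Thrb to Thra was tested by exact permutation. Alternatives were pseudocounts of 0.1 and 5, no filter, a minimum mean of 5 CPM, fits of the groups compared alone, equal column sums, median-of-ratios scaling, no variance trend, rows off the read step left out, edgeR 4.0.16 and DESeq2 1.42.0 on recovered reads, and each library left out. Gene spans are from RefSeq, exons from GENCODE M21 (GRCm38) and promoters from RefSeq GRCm38.p6.

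The 8 genes, the pathway lists and the rules were chosen with earlier results of these data known. The text names the 8 genes and genes of the lists that passed the test with whole reads, up to 4 for each list and comparison by smallest adjusted p, label checks, markers, and the 3 genes most like each called one; Dio1, Dio3, Slco1c1, Ttr, Crym, Secisbp2 and Nr1d1 were named after their values were seen. A few genes of the lists are not reported here and stand in no count of them.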

Additional observations from a re-analysis of the deposited data

How the results depend on the processing

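No paired analysis was possible because libraries 7 to 9 and 11 to 13 carry numbers that no sample title has, so no replicate block was fitted. Thrb kept its direction and call in 20 of 20 settings in hypoxia (-1.42 to -1.05) and with T3 against normoxia (-2.36 to -1.67), and in 19 of 20 with T3 against hypoxia (-1.03 to -0.62). The number of the 8 genes called in hypoxia went from 2 to 4 with equal column sums (Thrb lower, Dio2, Rxrb and Thra higher), and from 1 to 3 as each library was left out. With T3 against hypoxia it ran from 0 (without T3 12) to 2 (without T3 13), and against normoxia from 2 to 3. All genes called with T3 against hypoxia went from 838 to 172 with no filter, 275 with only the 2 groups, 234 with no variance trend and 1728 with DESeq2. Without single libraries they ran from 31 (without T3 12) to 1817 (without T3 13), with 455 without normoxia 2, 88 without hypoxia 7, 43 without hypoxia 8 and 46 without T3 11. The pathway genes called there, with Crebbp and Ncor1 counted, went from 7 to 3 with no filter and 2 with no variance trend. The cause was not tested. Equal column sums moved the median of all genes in hypoxia to 0.130, and the share of called genes that were higher from 42.5% to 76.3%. With T3 that share went from 42.1% to 29.0%, and against normoxia from 46.4% to 61.3%. Changes that turned sign were small. With equal column sums they were Thra 0.12 and Slc16a10 0.09 in hypoxia and Rxra 0.06 with T3 against normoxia, the last also 0.00 with edgeR. Without single libraries they were in hypoxia Thra (-0.05 to 0.04 over the 9 omissions, 0.01 without hypoxia 9) and Slc16a10 (-0.09 to 0.07, 0.01 without normoxia 2), and with T3 against normoxia Dio2 (-0.02 to 0.61), Rxrg (-0.06 to 0.24) and Rxra (-0.13 to 0.14). Thra also passed there with equal column sums (0.17, adjusted p = 0.0042), and Dio2 passed in hypoxia (1.06). On scales that add less than 1 CPM, Dio2 changed more in hypoxia, by 1.86 with a pseudocount of 0.1 and 1.63 with edgeR, without passing. Leaving out single libraries gave differences of the Thrb to Thra ratio of -1.46 to -1.26 in hypoxia, -1.24 to -0.95 with T3 and -2.58 to -2.28 against normoxia. Rxrg and Dio2 rest on 10 to 36 and 2 to 118 reads per library, which limits what can be seen of them.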
